A study of Mus musculus with 10 samples.

Results

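Open chromatin was compared between mouse Th17 cells labelled as a pyruvate dehydrogenase (PDH) knockout and control Th17 cells, both cultured without acetate, at all 39657 sites of the deposited ATAC-seq table. The comparison used 6 of the 10 libraries of the series: 3 titled PHD-fl/fl_CD4cre, of genotype PDH knockout and called KO here, and 3 titled PHD-fl/fl, of genotype WT. The protocol writes these mice as PDHfl/fl CD4 Cre+ and PDHfl/fl. Both genotypes carry the floxed allele, and only the KO cells carry CD4 Cre, a recombinase driven by regulatory sequence of the Cd4 gene and therefore active in the T cell lineage. All libraries were made by Omni-ATAC from naive CD4+ T cells, sorted with magnetic beads out of spleen and lymph nodes and differentiated for 3 days with plate-bound anti-CD3 at 5 µg/mL, anti-CD28 at 1 µg/mL, IL-6 at 30 ng/mL, anti-IFNγ at 5 µg/mL and TGFβ at 2 ng/mL. The other 4 libraries, 2 of each genotype, came from cells differentiated with 10 mM sodium acetate. They belong to neither group and serve here to set site levels, to estimate the spread and as a further view of the sites that differ. Ages, and whether the libraries of a group came from separate mice, are not stated, so the p-values measure the spread between these libraries.

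Pyruvate dehydrogenase turns pyruvate into acetyl-CoA inside mitochondria, which feeds the citrate pool. Citrate that leaves the mitochondrion is split by ATP citrate lyase into acetyl-CoA for lipid synthesis and histone acetylation, and acetate can supply acetyl-CoA through acetyl-CoA synthetase. Th17 cells are helper T cells that make IL-17. ATAC-seq inserts adapters with a transposase where DNA is not covered by nucleosomes, so the value of a site reports how open it was over the whole cell population. In such bulk samples fewer cells with an open site and a less open site per cell cannot be told apart.

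The KO libraries had lower deposited values at most sites. The median over all sites was 91.0, 94.3 and 117 in KO libraries 1, 2 and 3, and 191, 156 and 163 in WT libraries 1, 2 and 4, numbered and listed throughout as in the column names. Every KO library lay below every WT library, with means of 101 ± 14.2 against 169.8 ± 18.7 (SD, n = 3 each; two-sided exact permutation p = 0.1, the smallest that 3 against 3 allows). The 4 libraries with acetate had medians of 142 to 175. The share of the signal on the 2 mitochondrial sites of the table was 1.18 to 2.01% in the KO and 0.207 to 0.658% in the WT libraries (exact permutation p = 0.1), and its part in the lower values was not tested. Within every library the values were whole multiples of 1 step, to within 0.001 of a step, and these multiples summed to 5972169 to 10336677 in the 6 libraries. The column names give the prefix ATAC1 to all KO libraries and to WT libraries 1 and 2, and ATAC2 to WT library 4 and to the 4 libraries with acetate. For KO cells the prefix and the acetate treatment therefore cannot be told apart. That library gave 43.8% of its nuclear signal to sites at gene ends, against 35.5 and 38.4% in the other WT libraries and 38.1 to 39.2% in the KO libraries.

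Loci that define the labelled cells were open in both groups. To compare them, each library was divided by its own median, and all were set to a common median of 146 (median-scaled values). A gene neighbourhood is the sum of these values over the sites whose nearest protein-coding gene, within 50 kb, is that gene. Il17a, the gene of the cytokine itself, summed to 2023 to 2239 in the KO and 1564 to 2329 in the WT libraries. Cd3e, a chain of the T cell receptor complex, gave 1771 to 1895 and 1729 to 1848. The groups overlapped at both genes. The labels name the floxed gene only as PDH. At Pdha1, which encodes the alpha subunit of the E1 enzyme, the table holds 1 site, inside the gene, with median-scaled values of 88.5, 67.7 and 85.3 in the KO and 91.3, 83.6 and 101 in the WT libraries. The groups overlapped there, and an accessible site outside the deleted stretch does not check a deletion. Pdhb, the beta subunit, and Slc25a1, the citrate carrier, had no site given to them.

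The table holds almost no site whose deposited value was similar in the untreated groups. The log2 ratio of KO to WT means lay within 0.2 of 0 at 6 of 39657 sites. The same count was 20955 for KO against WT with acetate, 13826 for KO with acetate against untreated WT and 2458 for untreated KO against WT with acetate. The median difference over the table was -0.84 on the deposited log2 scale. The sites fell into 3691 above the empty stretch (9.31%; median log2 difference 1.10 on the deposited scale) and 35966 below it (median -0.87). The sources used here do not state how the sites of the table were chosen. Since the untreated difference itself separates them, a count of sites called higher is a description of the table and not independent evidence, and shares below are shares of the table's sites, not of all open chromatin.

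**Figure D1:**
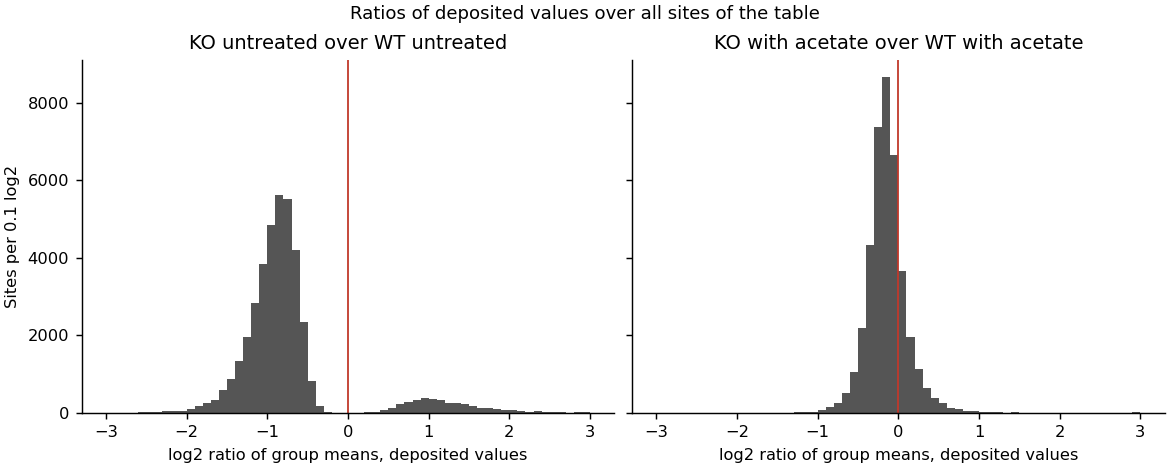
Numbers of sites (vertical axis) by log2 ratio of group means of the deposited values (horizontal axis, bins of 0.1) for untreated KO over untreated WT (left) and for KO over WT with acetate (right); the red line marks a ratio of 1. The left panel has an empty stretch at 0 between 35966 sites below and 3691 above, and the right panel has a single peak near 0.

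On the deposited scale limma called 35545 sites lower in KO (89.6% of the table) and 3597 higher (9.07%), at an adjusted p under 0.05. After median scaling 3708 sites were called higher (9.35%) and 1870 lower (4.72%), and the median difference over all sites was -0.087 on the log2 scale. Of the sites called higher, 3682 came from above the empty stretch and 26 from below it; all 1870 called lower came from below. The sites called higher had median values of 113, 124 and 123 in the KO libraries and 28.5, 34.7 and 31.7 in the WT libraries, with 35.7 and 39.3 in WT and 44.2 and 44.9 in KO with acetate. Only the untreated KO libraries approached the table's common median there. The sites called lower had medians of 66.6, 67.0 and 61.7 in KO and 115, 119.7 and 107 in WT, with 118 to 135 in the libraries with acetate, and 362 of them differed by at least 2-fold, against 3681 of those called higher. The number called lower depended on the libraries and the scaling. It was 3746 without WT library 4, 4545 within the ATAC1 libraries, 1064 without WT library 1 and 931 without KO library 3, while 4597 were called higher within ATAC1. Cyclic loess scaling gave 3708 higher and 956 lower.

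The largest difference of any neighbourhood with at least 3 sites was at Cd4, the co-receptor gene of helper T cells. Its 8 sites summed to 6062, 5194 and 5964 in the KO and 839, 810.3 and 960.3 in the WT libraries, a log2 difference of 2.72 (SE 0.080, adjusted p = 6.0e-11), or 6.60-fold. The groups did not come near each other. A site inside the gene at chr6:124879835-124880035 (GRCm38) had values of 643, 576 and 620.3 in KO and 21.9, 18.8 and 4.95 in WT (log2 difference 5.46, SE 0.37, adjusted p = 5.8e-07), the largest of any site. The strongest site, at chr6:124885264-124885464, also inside the gene, had 3139, 2801 and 3056 and 537, 524 and 591. At chr6:124900561-124900761, between Cd4 and Lag3, the inhibitory receptor gene beside it, the values were 1023, 983 and 1055 in KO and 207, 247 and 248 in WT (log2 difference 2.12, SE 0.14, adjusted p = 4.8e-07). The other 3 sites given to Lag3 had fitted log2 differences of -0.34, -0.54 and -0.44, of which the second passed the test. Of the Cd4 sites 6 were called higher, while the weak site at the 3' end of the gene was called lower (-1.30) and the one farthest upstream was not called (-0.22). Cd4 also stood high in KO cells with acetate, at 6164 and 5574 against 766 and 794 in WT with acetate, so all 5 libraries with CD4 Cre lay above all 5 without it. The transgene carries Cd4 regulatory sequence, and its part in this signal was not tested.

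Few other sites that were higher in untreated KO cells were also more than 2-fold higher in KO than in WT cells with acetate. Smaller differences are not counted here. At the sites called higher the medians with acetate were 44.2 and 44.9 in KO and 35.7 and 39.3 in WT. Of 3708 sites called higher, 23 had both KO libraries with acetate above 2 times both WT libraries with acetate. Over all 39657 sites the count was also 23, so every site that met this ratio was among those called higher. At some of them the WT libraries with acetate read very low, such as 2.55 and 4.37 at a site inside Agap1. Of the 23, 7 were given to Cd4 or Lag3. A further 4 lay on chromosome 3, 3 of them at chr3:60762949-60795581, more than 50 kb from any coding gene, and 1 inside Kcnab1, a potassium channel subunit gene. Mbnl1, a splicing regulator gene on the same chromosome, had all 8 of its sites called higher, with sums of 1797, 1821 and 2004 in KO and 495, 628 and 546 in WT (log2 difference 1.76, SE 0.11, adjusted p = 6.6e-07). With acetate it read 841 and 951 in KO and 567 and 636 in WT. The KO libraries with acetate thus lay between the untreated KO and WT libraries. The ratio of 2 was chosen after the values were seen.

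Over all gene neighbourhoods, 1214 of 12241 were called higher in KO (9.92%) and 296 lower (2.42%). With total-signal scaling the counts were 1282 and 688. Within the ATAC1 libraries they were 2367 and 729, and without WT library 4 1767 and 541. The number lower was 142, 98 and 133 without KO library 1, KO library 3 or WT library 1. Through every alternative tried, 944 kept a call of higher and 54 of lower. Of the genes called higher, 756 consisted only of sites above the empty stretch.

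After Cd4, the largest rises among genes with at least 3 sites were at 11 genes of varied function. They were Aqp4, a water channel of astrocytes, Olfr175, an olfactory receptor, Dmc1, the meiotic recombinase, P2ry1, an ADP receptor, and Gjc3, a connexin. Arhgap24 and Agap1, regulators of small GTPases, Alk, a receptor tyrosine kinase of neural development, Fat2, a protocadherin, Plpp3, a lipid phosphatase, and Pax5, the B lineage transcription factor, completed the 12. The log2 differences of these 11 ran from 2.15 to 2.36, and each of their 35 sites was called higher. Dmc1 summed to 861, 888 and 956 in KO and 172, 184 and 172 in WT, and read 158 and 179.6 in KO with acetate. Pax5 summed to 301, 298 and 329 in KO and 51.4, 71.4 and 89.1 in WT, with 108 and 101 in KO with acetate. In all 11 the untreated KO libraries stood above every other library, and the WT values were low, between 20.8 and 232 for the sum over a gene. The choice of the largest values fixes this separation.

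The largest falls were smaller, from -0.57 to -0.80. They included Gzmb, the gene of the cytotoxic protease granzyme B, which summed to 1081, 1131 and 1097 in KO and 1535, 1468 and 1972 in WT (log2 difference -0.58, SE 0.10, adjusted p = 6.9e-04). WT library 4 was the highest there, and 3 of 7 sites were called lower, among them the gene start at chr14:56262269-56262469, with 222, 274 and 244 in KO and 395, 427 and 412 in WT. Klri2, a member of the lectin-like receptor family of natural killer cells, summed to 405, 327 and 349.9 and 614, 679.8 and 489 (log2 difference -0.71, SE 0.14, adjusted p = 0.002). Pde1a, a calmodulin-dependent phosphodiesterase gene, gave 160.4, 122 and 168 and 282, 321 and 194 (log2 difference -0.80, SE 0.19, adjusted p = 0.0097). Its groups did not overlap, but WT library 4 came close to the KO values. The remaining 9 were S1pr3, a receptor for sphingosine-1-phosphate, B4galt2 and St3gal3, which encode glycosyltransferases, Slc17a6, a glutamate transporter, Mrpl33, a mitochondrial ribosomal protein, Parp3, Mpzl3, Brdt and Cryaa. Of the 12, 6 were called in all 14 alternatives. Leaving out KO library 2 ended the calls of Slc17a6, Pde1a, Mrpl33, St3gal3 and Parp3 (adjusted p = 0.058 to 0.1), and all but Slc17a6 were also lost without WT library 1. Parp3 and St3gal3 were lost without KO library 3 as well, Mrpl33 without KO library 1 and St3gal3 without WT library 2, and Cryaa reversed to 0.045 when only sites within 10 kb counted. At all 12 both KO libraries with acetate lay above every untreated KO library.

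**Figure D2:**
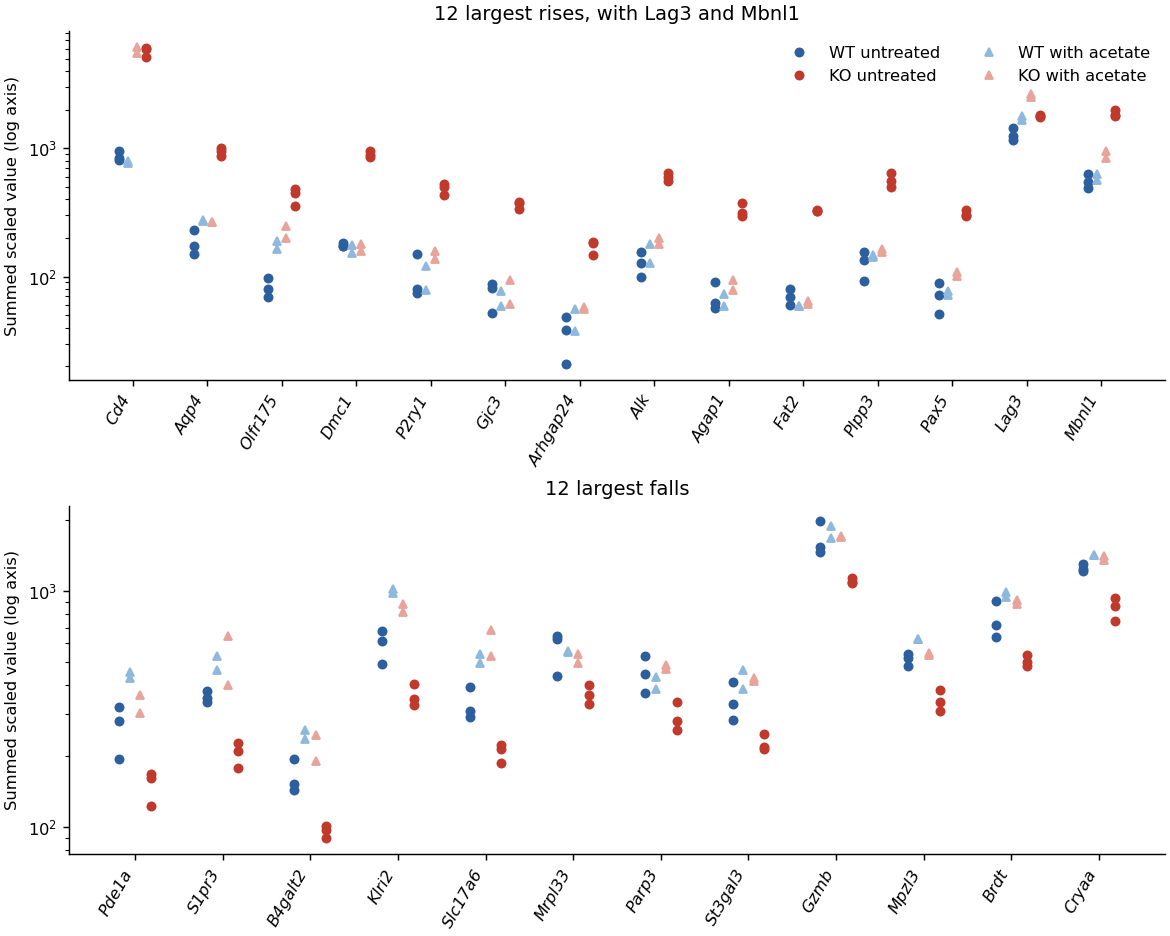
Summed median-scaled values (vertical axis, log scale) of the gene neighbourhoods with the 12 largest rises, with Lag3 and Mbnl1, and with the 12 largest falls; each point is 1 library, circles are untreated and triangles are with acetate. Cd4 is the 1 rise where the KO libraries with acetate (6164 and 5574) sit with the untreated KO libraries; at Dmc1 they read 158 and 179.6, beside the WT libraries.

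Sites called higher were spread unevenly over positions and levels. Sites beyond 50 kb of any coding gene were called higher most often, at 22.7% of 3207, followed by 11.1% of 16800 sites inside genes and 9.67% of 9817 between genes. At gene ends, within 1 kb of either end of a gene, it was 1.64% of 9825. There the gene start, where a promoter lies, gave 0.908% and the 3' end 5.87%. By level in the 4 libraries with acetate, which were not part of the comparison, the share called higher went from 31.7% in the weakest of 5 equal groups of sites to 0.567% in the strongest group. Both held at once: 49.3% of the weakest sites beyond 50 kb were called higher, and 0.218% of the strongest at gene ends. Within the ATAC1 libraries the shares at gene ends and in the strongest group were 8.25 and 9.42%, and without WT library 4 they were 4.15 and 3.71%; the share in the weakest group was 31.8% in both.

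Sites called higher were also isolated. Of 2706 sites with no other site of the table within 50 kb, 37.4% were called higher and 1.96% lower, whereas of 18839 sites with 6 or more such neighbours 2.05% were called higher and 6.41% lower. The order of the shares called lower, from no neighbour to 6 or more, was the same without WT library 4 (3.99 to 12.6%) and with cyclic loess scaling (0.813 to 3.39%). The median distance from a site called higher to the nearest other site was 19.7 kb, against 3.98 kb over all nuclear sites. That nearest site was itself called higher in 40.8% of cases, against 7.86% over all. Regions with few genes held more of them: the share was 17.4% among the sites with 0 to 6 coding genes within 500 kb and 3.78% among those with 26 to 74. Falls showed less dependence on gene density, at 4.66 and 4.26%.

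**Figure D3:**
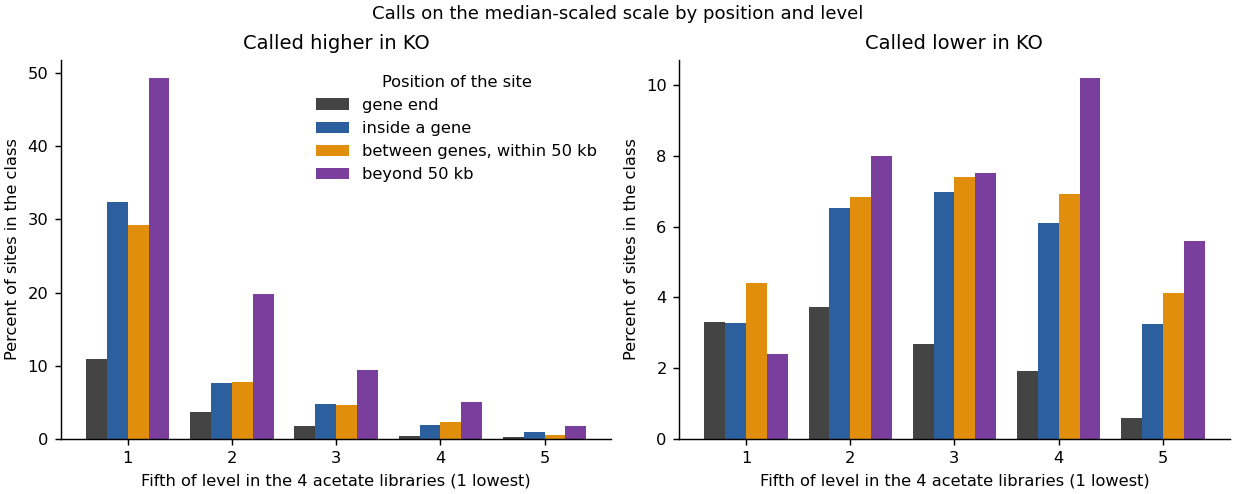
Percent of sites called higher (left) or lower (right) in untreated KO after median scaling (vertical axes, scales differ) by level in the libraries with acetate in 5 equal groups (horizontal axis) and position (colours). The tallest bar is 49.3% of the weakest sites beyond 50 kb called higher; calls of lower are rarest at strong gene ends (0.581%).

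The share of the nuclear signal in a class changed little beside these counts. The share of nuclear signal beyond 50 kb was 6.02 to 6.20% in the KO and 5.02 to 6.17% in the WT libraries (exact permutation p = 0.3), so the groups overlapped. For gene ends the means were 38.8 ± 0.567 and 39.2 ± 4.24% (SD, n = 3 each; exact permutation p = 0.9). Relative to all sites, the median log2 level of gene-end sites was -0.072 for KO minus WT (exact permutation p = 0.8), and 0.079 without WT library 4. For sites beyond 50 kb this level was 0.22, and for sites with no other site within 50 kb 0.62. The groups did not overlap in either class (exact permutation p = 0.1 each). These classes hold 727 and 1016 sites above the empty stretch. The weakest of the 5 groups by level gave 0.23 (exact permutation p = 0.1, with no overlap of KO and WT libraries). Its median difference per site was -0.14, and most of its sites, those below the empty stretch, had a median of -0.30. Of its 7932 sites 2520 lay above the empty stretch. In the next 3 groups the KO minus WT values were -0.13, -0.095 and -0.067, and in the strongest -0.0092. Since the untreated difference itself separates the sites, the p-values of these class levels describe the table and are not independent evidence.

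Calls of lower were most frequent among genes with many sites. Among 437 genes with over 10 sites, 54 were called lower (12.4%) and 18 higher (4.12%), whereas among 4899 genes with 1 site 87 were lower (1.78%) and 606 higher (12.4%). The median log2 difference was -0.074 for genes with over 10 sites and -0.0050 for genes with 1 site. Over all sites, taken singly, it was -0.087. Sums over many sites can have a smaller SE, such as 0.046 at Prkcq against 0.19 at Mrps16, which has 1 site. Smaller differences can therefore pass the test in genes with many sites. Without WT library 4 the genes with over 10 sites gave 106 lower and 24 higher, with total-signal scaling 79 and 9, and with median-of-ratios factors 23 and 27. With these last factors the excess of lower over higher calls was gone. Of the 54, 13 were called lower in every alternative. These groups by number of sites, and the genes named from them below, were chosen after the values were seen.

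**Figure D4:**
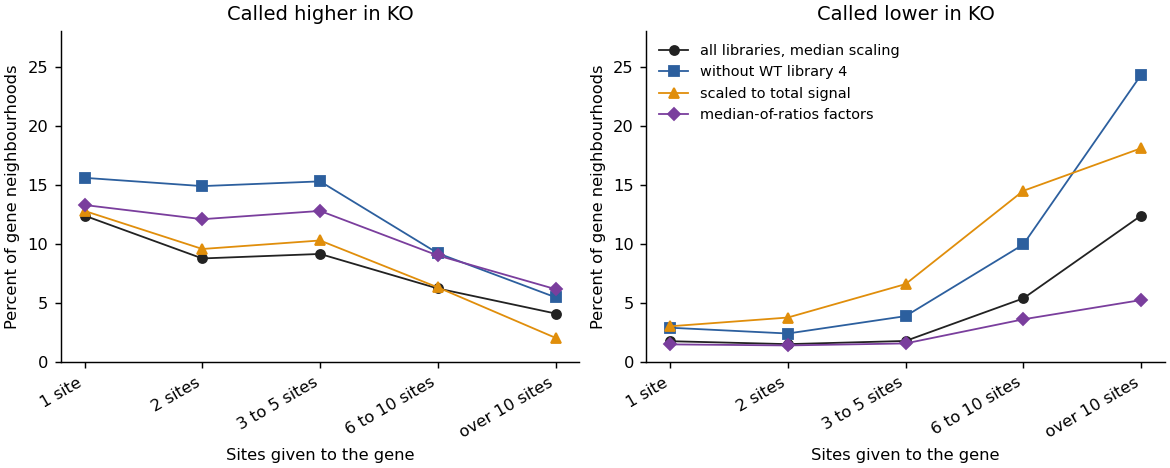
Percent of gene neighbourhoods called higher (left) or lower (right) in untreated KO (vertical axes) by the number of sites given to the gene (horizontal axis); lines join values of 1 fit. For genes with over 10 sites the share called lower is 12.4% with median scaling, 24.3% without WT library 4 and 5.26% with median-of-ratios factors.

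Of the densely covered genes that fell, 12 are described here, most of them genes with known roles in T cells. Prkcq, which encodes the kinase PKC-theta that acts below the T cell receptor, had 46 sites that summed to 8219, 8203 and 7891 in KO and 10574, 10157 and 9581 in WT (log2 difference -0.32, SE 0.046, adjusted p = 1.4e-04), and 9 of its sites were called lower. Cd247, the gene of the CD3 zeta chain, gave 3224, 3352 and 3077 and 3947, 3834 and 3669.9 (log2 difference -0.25, SE 0.052, adjusted p = 0.0039). Both differences were small, and no KO library reached a WT library. Ssbp3, a single-stranded DNA-binding protein gene, gave 2498, 2733 and 2402 and 3297, 3203 and 3320.5 (log2 difference -0.37, SE 0.059, adjusted p = 3.9e-04). Tigit, an inhibitory receptor, had a log2 difference of -0.29 (SE 0.068, adjusted p = 0.0077), Ctla4, another, -0.19 (SE 0.045, adjusted p = 0.012), Cd2, an adhesion receptor whose groups overlapped, -0.22 (SE 0.065, adjusted p = 0.039), and Vsir, the checkpoint protein VISTA, -0.23 (SE 0.053, adjusted p = 0.0073). Cytokine genes and their signalling partners were Lif at -0.33 (SE 0.068, adjusted p = 0.0029), Jak1 at -0.18 (SE 0.055, adjusted p = 0.045) and Ifnar1, an interferon receptor chain, at -0.20 (SE 0.057, adjusted p = 0.027). Fosl2, an AP-1 factor, had -0.32 (SE 0.086, adjusted p = 0.021), and Lef1, a factor of naive T cells, -0.18 (SE 0.054, adjusted p = 0.04). Prkcq, Cd247, Ssbp3 and Lif were called in all 14 alternatives. With 1 library left out, Fosl2 lost its call without KO library 1 or 3, Ctla4 without WT library 1 or 2, Ifnar1 without KO library 1 or 3 or WT library 2, Jak1 and Lef1 without KO library 1 or 3 or WT library 1 or 2, and Cd2 without KO library 2 or 3 or WT library 1 or 2. When only sites within 10 kb counted, Ctla4 (-0.10, adjusted p = 0.42), Ifnar1 (-0.10, adjusted p = 0.55), Tigit (adjusted p = 0.39), Jak1 (adjusted p = 0.097) and Cd2 (adjusted p = 0.053) were not called. With median-of-ratios factors Ctla4, Ifnar1, Jak1, Cd2 and Lef1 were not called either, and as a mean of log2 values Vsir, Ctla4, Jak1 and Lef1 were not. Of the 14 alternatives Jak1 was called in 5, Cd2 and Lef1 in 6, Ifnar1 in 7, Ctla4 in 8 and Fosl2 in 10. Cd247 and Fosl2 gave larger differences as means of log2 values, -0.41 and -0.69.

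Among the 18 densely covered genes that rose, Hdac9, a class II histone deacetylase gene, stood apart. Its 11 sites summed to 1148, 1321 and 1382 in KO and 448, 559 and 609.8 in WT (log2 difference 1.26, SE 0.13, adjusted p = 9.0e-06), 8 of them were called higher, and with acetate the KO libraries read 661 and 714. The next were Pakap at 0.63, Ptk2, the focal adhesion kinase gene, at 0.49, Trps1, a GATA-type factor, at 0.46 and Rad51b, a DNA repair gene, at 0.41. In each of these 5 at least 3 sites were called higher and none lower. Rad51b and Ptk2 were not called when only sites within 10 kb counted, at 0.13 (adjusted p = 0.3) and 0.23 (adjusted p = 0.13), whereas as means of log2 values Ptk2 and Trps1 gave 0.84 and 0.89. Dense rises among genes active in T cells included Tnfsf8 (0.29, but -0.037 within 10 kb) and Dock2, a migration regulator of lymphocytes (0.22).

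**Figure D5:**
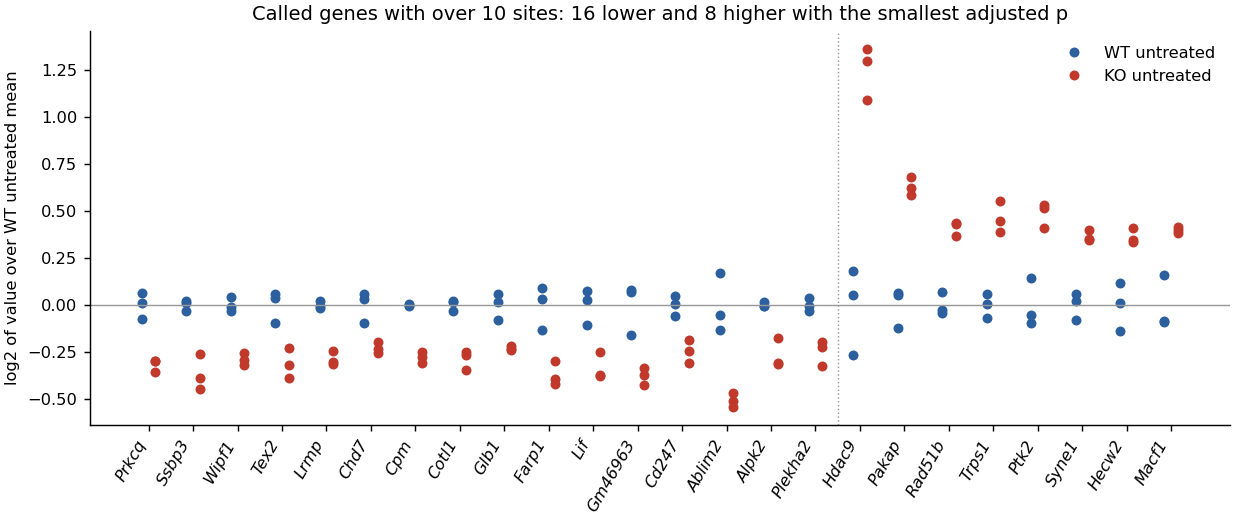
Log2 of the summed median-scaled value over the WT untreated mean (vertical axis) for genes with over 10 sites, the 16 called lower (left of the dotted line) and the 8 called higher with the smallest adjusted p; each point is 1 library. The groups do not overlap at any of the 24, and the falls (Prkcq -0.32) are smaller than the rise of Hdac9 (1.26).

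Values were also summed over longer stretches. Of 1506 windows of 1 Mb with at least 5 sites, 140 were called higher in KO (9.3%) and 2 lower (0.133%). With total-signal scaling 196 and 130 were, without WT library 4 424 and 30, and within the ATAC1 libraries 538 and 44. Leaving out KO library 2, KO library 3 or WT library 1 gave 92, 93 and 87 higher. The share higher was 19.2% among windows with 5 to 9 sites and 0.656% among those with 40 or more. In windows called higher a median of 41.9% of the sites lay above the empty stretch, against 8.33% over all windows. A call therefore does not mean that most sites of a window rose. The largest rise was in a window of chromosome 12 whose 5 sites all lay over 50 kb from a coding gene, with sums of 468, 591 and 522 in KO and 93.2, 121 and 177 in WT (log2 difference 2.05, SE 0.20, adjusted p = 2.6e-05). A window of chromosome 1 around Sh3bp4 and Agap1 gave 944, 1071 and 998 and 211, 309.8 and 253 over 8 sites, all called higher. The next were at Mef2c, a transcription factor of muscle, neurons and B cells (1.95), Asic2, an acid-sensing channel of neurons (1.88), and Nrp2, a semaphorin receptor (1.71). The windows called lower lay at Tns1 on chromosome 1 (-0.41, not called without KO library 3) and at Slc17a6, Fancf and Gas2 on chromosome 7, where 29 sites summed to 2573, 2638 and 2500.5 in KO and 3247, 3298 and 3420.5 in WT (log2 difference -0.37, SE 0.061, adjusted p = 0.0014). On chromosome 7, 13 of the 29 sites were called lower, and the libraries with acetate stood higher still, at 4269 to 4587.

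Calls were rare at promoters in the main comparison, but this depended on the libraries. At gene starts 0.908% of sites were called higher and 1.26% lower. Without WT library 4 these shares were 3.67 and 1.63%, and within the ATAC1 libraries 8.31 and 1.94%. The promoter calls below are from the main comparison and were not counted in those fits. RefSeq promoter sequences (GRCm38.p6, 250 bases before to 50 after a gene's start) were matched by position, and 5864 sites of the table overlapped one. Of these 28 were called higher and 42 lower (0.477 and 0.716%). The calls were most frequent where the promoter held few CpG dinucleotides: with 0 to 14 CpG, 1.62% were higher and 1.95% lower, and in the other 4 of 5 equal groups the shares were 0 to 0.434% and 0.0973 to 0.543%. The promoters called lower included those of Gzmb, Il23r, the receptor chain for IL-23, Cd44, an adhesion receptor of activated T cells, Satb1, a chromatin organizer of T cells, Ccnd3, a G1 cyclin, and Slc16a3, a lactate transporter. Il23r had 103, 104 and 116 in KO and 186, 195 and 160.4 in WT (log2 difference -0.74, SE 0.15, adjusted p = 0.0014), with every KO library below every WT library. Gzmb fell by the same amount at its start (-0.74, SE 0.13, adjusted p = 5.7e-04). Of the rises at promoters of strong sites, 3 of 8 were at H2b histone genes (H2bc8, H2bc11 and H2bc12, 0.36 to 0.42), near-identical copies whose reads may not be separable and whose values are uncertain. Larger rises were at weak sites of promoters such as those of Il1rn (2.24), the IL-1 receptor antagonist, Ifna14 (2.27) and Olfr175 (2.29), the last 2 from multigene families. These names, other than Gzmb and Il23r, which other rules also name, were picked after their values were seen.

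Of these promoters 6 are shown as examples, 5' to 3' on the strand of the gene. They are the 2 largest rises and the largest fall among sites at or above the median level. The Plaur and Gzmb falls, which hold an AP-1 match, and the Il23r fall are added. The choice sets how the examples differ. Among those not shown, Sfpq and H2bc11 rose with 13 and 11 CpG and no GC box. Cks1b fell with 17 CpG and a GC box. Capitals mark matches on either strand to AP-1 (TGANTCA), ETS (CCGGAA), RUNX (TGTGGT), the GC box (GGGCGG), a nuclear receptor site (AGGTCA) and the CCAAT box; adjoining capitals can be overlapping matches.
Ppp2r5d, chr17:46704977-46705276, minus strand: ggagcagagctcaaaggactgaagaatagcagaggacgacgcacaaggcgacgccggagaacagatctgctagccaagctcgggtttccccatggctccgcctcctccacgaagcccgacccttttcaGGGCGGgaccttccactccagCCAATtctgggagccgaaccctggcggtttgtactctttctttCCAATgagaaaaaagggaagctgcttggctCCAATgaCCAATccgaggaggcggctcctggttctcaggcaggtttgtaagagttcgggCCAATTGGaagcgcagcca
Nlk, chr11:78697376-78697675, minus strand: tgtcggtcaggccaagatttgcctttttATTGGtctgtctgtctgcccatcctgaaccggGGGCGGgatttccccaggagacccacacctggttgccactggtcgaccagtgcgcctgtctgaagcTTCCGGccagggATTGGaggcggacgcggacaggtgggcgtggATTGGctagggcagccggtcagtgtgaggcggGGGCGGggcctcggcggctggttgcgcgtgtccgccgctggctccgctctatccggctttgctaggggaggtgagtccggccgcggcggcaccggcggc
Gpr146, chr5:139377447-139377746, plus strand: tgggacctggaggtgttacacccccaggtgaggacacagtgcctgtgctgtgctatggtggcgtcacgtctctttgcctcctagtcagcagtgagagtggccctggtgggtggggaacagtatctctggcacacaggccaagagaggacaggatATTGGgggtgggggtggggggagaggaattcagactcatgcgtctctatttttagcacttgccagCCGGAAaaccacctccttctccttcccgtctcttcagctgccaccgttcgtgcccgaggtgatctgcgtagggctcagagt
Plaur, chr7:24462233-24462532, plus strand: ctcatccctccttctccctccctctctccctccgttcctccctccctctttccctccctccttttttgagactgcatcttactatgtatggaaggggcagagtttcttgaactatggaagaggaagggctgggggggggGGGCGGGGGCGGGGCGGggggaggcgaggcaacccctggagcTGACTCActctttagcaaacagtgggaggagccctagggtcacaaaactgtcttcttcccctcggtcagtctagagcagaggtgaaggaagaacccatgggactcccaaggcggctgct
Gzmb, chr14:56262285-56262584, minus strand: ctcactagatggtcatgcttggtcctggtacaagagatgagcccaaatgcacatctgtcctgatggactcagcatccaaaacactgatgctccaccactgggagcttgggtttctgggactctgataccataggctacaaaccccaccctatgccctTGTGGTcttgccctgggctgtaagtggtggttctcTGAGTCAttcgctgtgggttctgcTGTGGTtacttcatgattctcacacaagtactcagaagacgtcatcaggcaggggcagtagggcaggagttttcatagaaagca
Il23r, chr6:67491806-67492105, minus strand: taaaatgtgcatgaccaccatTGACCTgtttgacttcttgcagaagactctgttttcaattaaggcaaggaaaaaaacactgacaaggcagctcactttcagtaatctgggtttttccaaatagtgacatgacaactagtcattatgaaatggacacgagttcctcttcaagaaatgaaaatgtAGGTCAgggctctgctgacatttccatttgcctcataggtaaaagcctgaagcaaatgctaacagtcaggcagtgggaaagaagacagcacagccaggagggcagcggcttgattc

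Ppp2r5d, a regulatory subunit of the phosphatase PP2A, and Nlk, a kinase of the Wnt pathway, rose by 0.45 and 0.44 on the log2 scale; their promoters hold 16 and 27 CpG, with GC and CCAAT boxes. Neither rise held up to leaving out single libraries: Ppp2r5d was not called without KO library 1 or 2 or WT library 1 or 2, nor Nlk without any of these or KO library 3. Gpr146, an orphan receptor gene, and Plaur, the urokinase receptor, fell by 0.84 and 0.74 and hold 9 and 7 CpG, and Gzmb and Il23r hold 2 each; all 4 stayed called with any 1 library left out. An AP-1 match was present in 7.81% of all 32851 listed promoters, 4.42% of those with a site, 14.3% of those called lower and 10.7% of those called higher. For the GC box these 4 shares were 35.7, 70.0, 59.5 and 35.7%, and for the CCAAT box 37.4, 37.1, 35.7 and 57.1%. With 42 and 28 promoters called, single promoters move these shares by several points. Of the 42 called lower 24, and of the 28 called higher 20, lay in the group with 0 to 14 CpG.

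Across all gene ends, start or 3' end, 33 sites were called higher and 80 lower without overlap of the groups, of 7444 gene-end sites at or above the median level. Over the whole table these counts were 3703 and 1789 of 39657 sites. Falls did not outnumber rises in every fit. Among gene-end sites of any level 161 were called higher and 172 lower. Without WT library 4 the counts were 408 and 252, and within the ATAC1 libraries 811 and 318. The largest falls were at Gm10277 (-1.33, SE 0.16, adjusted p = 1.9e-05), Zbtb12, a zinc finger factor (-1.17, SE 0.17, adjusted p = 7.4e-05), Ggta1, a galactosyltransferase (-0.94, SE 0.15, adjusted p = 1.3e-04), Grina, Lypla2, Cdadc1, Gpr146 and Spred3; Cdadc1 was not called without KO library 1 or 3. Ggta1 had 124, 135 and 126 in KO and 253, 208 and 290.1 in WT at its start, and Zbtb12 81.5, 76.4 and 57.3 and 171, 166 and 147 at its 3' end. Beside Cd4, the largest rises were at Lemd3, an inner nuclear membrane protein gene, with 422, 543 and 522 in KO and 105, 131 and 81.2 in WT (log2 difference 2.24, SE 0.18, adjusted p = 1.7e-06), Il4i1, an amino acid oxidase of immune cells, with 363, 584 and 445 and 106, 118 and 104 (2.05, SE 0.18, adjusted p = 2.5e-06), and Vcam1, an adhesion molecule of endothelium, with 306, 318 and 339.6 and 78.0, 98.6 and 106 (1.77, SE 0.16, adjusted p = 3.1e-06). Clip4, Synm, Krt16 and Plpp1 followed with 1.71 to 2.01.

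At 9 fixed loci of Th17 and wider T cell function, 4 of 58 sites were called, 2 higher and 2 lower. Over all sites 9.35% were called higher and 4.72% lower. Of the 58 sites, 17 were given to Tcf7 and 9 to Il2ra, genes that are not specific to Th17 cells. No site of either gene was called, so the low share is not that of Th17 genes alone. No neighbourhood among Il17a, Il17f, Il23r, Ccr6, Batf, Irf4, Maf, Il2ra and Tcf7 was called in the main comparison, and their fitted log2 differences ran from -0.35 (SE 0.19) at Ccr6, the chemokine receptor of Th17 cells, to 0.32 (SE 0.10) at Maf. Il17a summed to 2239, 2102 and 2023 in KO and 2012, 2329 and 1564 in WT, with overlap. Ccr6 and Il17f were called lower without WT library 4, at -0.62 (adjusted p = 5.8e-04) and -0.45 (adjusted p = 0.027), and Batf, Maf and Il2ra higher (0.41, 0.33 and 0.18). At Maf and Il2ra, the IL-2 receptor alpha chain, every KO library lay above every WT library all the same. Among single sites, 1 between genes upstream of Batf, an AP-1 factor of Th17 differentiation, at chr12:85664336-85664536, read 182, 291 and 270.5 in KO and 34.2, 28.2 and 26.7 in WT (log2 difference 3.00, SE 0.20, adjusted p = 5.4e-07). Another upstream of Maf, at chr8:115722072-115722272, read 153, 174 and 147 and 46.6, 67.6 and 80.2 (1.31, SE 0.20, adjusted p = 1.1e-04). Inside Ccr6, at chr17:8240559-8240759, the values were 31.6, 25.9 and 26.5 and 58.0, 55.4 and 53.5 (-0.97, SE 0.22, adjusted p = 0.0048), and the Il23r start is given above.

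Calls among gene lists for T cell functions are read against 9.92% higher and 2.42% lower over all genes and a median difference of -0.019. None of 12 Th17 effector and receptor genes was called (median -0.064), nor of 21 activation factors (median -0.081). Of 14 Th17 transcription factors, Ahr, the aryl hydrocarbon receptor, rose (0.82, SE 0.16, adjusted p = 0.0016), with 1 of its 3 sites called higher; within 10 kb it gave 0.18 (adjusted p = 0.73). Among 26 genes of T cell receptor signalling 5 fell and none rose (median -0.11). Beside Prkcq and Cd247 the falls included Dgkz, a diacylglycerol kinase (-0.25), and the adaptor Lat (-0.22). These 26 genes hold 308 sites, and of all genes with over 10 sites 12.4% were called lower and 4.12% higher. With median-of-ratios factors falls did not outnumber rises among genes with over 10 sites. Co-stimulatory and inhibitory receptors gave 4 higher and 3 lower of 19, with rises of Lag3, through the site beside Cd4 (0.20, adjusted p = 0.27, as a mean of log2 values), Tnfsf8, the CD30 ligand (0.29), and Tnfsf11, the RANK ligand (0.96). Cytokine receptors and STATs gave 2 higher and 2 lower of 27, the falls being Ifnar1 and Jak1. Regulatory T cell genes gave 0 higher and 2 lower of 15 (median -0.19; Ctla4 and Tnfrsf4), AP-1 and BATF factors 1 higher and 1 lower of 14 (Jun higher, Fosl2 lower; Jun was not called within 10 kb, at 0.067, nor as a mean of log2 values, at 0.15), and Th1, Th2, naive and stem-like, and chemokine receptor lists each 1 call, at Gzmb, Il1rl1, Lef1 and Pecam1. Leaving out single libraries ended the calls of Lat, Il1rl1, Tnfrsf4 and Pecam1 (without any of KO libraries 1, 2 and 3 and WT libraries 1 and 2) and of Dgkz (without KO library 1 or 3 or WT library 1 or 4), with adjusted p up to 0.23. Tnfsf8 turned to -0.037 when only sites within 10 kb counted.

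Metabolic genes were read by list in the same way. Of 10 genes of the pyruvate dehydrogenase complex and its regulators none was called (median 0.083). At Acly, ATP citrate lyase, the sums were 999, 1231 and 985 in KO and 939.8, 899 and 1240.5 in WT, and at Acss2, acetyl-CoA synthetase, 64.9, 41.8 and 75.0 and 52.3, 60.1 and 56.4; both overlapped. In the list of citrate export, acetyl-CoA and lipogenesis genes (0 higher and 1 lower of 14), Slc16a3 fell (-0.40, SE 0.11, adjusted p = 0.022). The TCA cycle list gave 1 higher and 0 lower of 18, the call being Cs, citrate synthase (0.23, SE 0.070, adjusted p = 0.042), which turned to -0.084 as a mean of log2 values. Glycolysis and glucose uptake gave 1 higher and 1 lower of 18: Hk1, a hexokinase, had 492, 438 and 394 in KO and 141, 148 and 171 in WT (1.52, SE 0.16, adjusted p = 1.1e-05), and Slc2a1, the glucose transporter GLUT1, -0.27 (SE 0.081, adjusted p = 0.042). In cholesterol synthesis Srebf2, its master regulator, fell (-0.37, SE 0.093, adjusted p = 0.014), 0 higher and 1 lower of 15 being called. No histone acetyltransferase gene of 11 was called, and the deacetylases gave 2 higher and 1 lower of 13: Hdac9 and Hdac8 rose and Hdac7 fell. The integrated stress response gave 1 higher and 0 lower of 9 (Psat1, serine synthesis), NRF2 and antioxidant genes 1 higher and 0 lower of 15 (Gclc, glutathione synthesis), the cell cycle 1 higher and 1 lower of 22 (Ccnd1 higher, E2f2 lower), apoptosis and survival 1 higher and 0 lower of 19 (Xiap), and the interferon response 2 higher and 0 lower of 10 (Oas1a among them). Hk1, Hdac9 and Ccnd1 stayed called with any 1 library left out, but Hk1, with 1 of 2 sites called higher, gave 0.56 (adjusted p = 0.05) as a mean of log2 values. The calls of Psat1, Gclc, E2f2, Oas1a, Hdac8, Cs, Hdac7 and Xiap ended without KO library 2, those of Slc16a3, Srebf2 and Slc2a1 without KO library 1 or WT library 1, and those of Cs, Xiap and Hdac7 also without KO library 1 or 3 or WT library 1 (adjusted p up to 0.22). Gclc and Xiap turned to -0.091 and -0.44 when only sites within 10 kb counted.

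Cytosolic ribosomal protein and proteasome genes had no calls. None of 67 cytosolic ribosomal protein genes and none of 33 proteasome genes was called, with medians of -0.021 and 0.0094; 58.9 and 57.8% of their sites were at gene ends, against 27.0% over all genes. Mitochondrial ribosomal proteins gave 3 higher and 3 lower of 64, the nuclear-encoded respiratory chain 2 higher and 0 lower of 69 and Zfp zinc finger genes 13 higher and 1 lower of 260. In families that T cells keep silent, gene neighbourhoods were called higher and none lower. Olfactory and vomeronasal receptors gave 13 higher and 0 lower of 42 with a site, Hox genes 3 higher and 0 lower of 6, neuronal and synaptic genes 3 higher and 0 lower of 8 and skeletal muscle genes 1 higher and 0 lower of 5, at Myog. Most of their members had no site in the table: 42 of 1463 receptor genes and 6 of 39 Hox genes had one. Of the 62 receptor sites 19 were called higher and 2 lower. Since the untreated difference itself separates the table's sites, the direction of calls in these families describes the table and is not independent evidence. The lists were not tested as groups.

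Markers of other cell types moved in part. B cell markers summed to 2369.7, 2475 and 2687 in KO and 1687, 1780.2 and 1663 in WT, 1.47-fold (exact permutation p = 0.1, no overlap). Of their 22 sites 10 were called higher. Since the untreated difference itself separates the table's sites, the p-values of marker sums describe the table and are not independent evidence. Of the 14 B cell markers 4 rose (Pax5, Blk, Blnk and Bank1), 3 were not called (Ebf1, Cd22 and Btk), and 7 had no site in the table, among them the defining surface genes Ms4a1, Cd79a and Cd79b. Ebf1, with 11 sites, the most of these genes, differed by -0.024. Sums for γδ T cell and erythroid markers were 1.18 and 1.16-fold (exact permutation p = 0.1 each), with 2 of 6 and 2 of 6 genes higher; Blk counts for B and γδ T cells alike. CD8 T cell, natural killer and innate lymphoid, and myeloid markers summed to 0.894, 0.941 and 0.983-fold (exact permutation p = 0.1, 0.2 and 0.4). The CD8 T cell sums did not overlap either, at 891 to 924 in KO and 951 to 1041 in WT. In natural killer and innate lymphoid markers Zbtb16 and Kit rose and Id2 fell. The part of other cells in the rises was not tested; the sites were weak in the WT libraries, where Pax5 summed to 51.4, 71.4 and 89.1 over 4 sites.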

How the data were processed

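The table analysed holds signal values per site that the authors deposited for 10 libraries, on GRCm38. Per the submitters' processing notes the tools included BWA 0.7.16a, Picard 2.10.9, Genrich, DiffBind 3.6.1 and DESeq2; their roles, the scaling of the signal and the choice of sites are not given in the sources used here. The deposited values were whole multiples of 1 step per library, and the count behind a step is not given, so no count model was used. Column names carry group and number; the column numbered 4 in the WT group has no matching title and was used as a replicate of its group.

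Values were divided by the library median and set to the mean of the medians. limma 3.58.1 (trended, robust; 4 group means over all 10 libraries) was fitted to log2(value + 1), with Benjamini-Hochberg adjustment over all sites, genes or windows and a threshold of 0.05. A fold change on this scale understates the change of low sites. For single values a two-sided exact permutation test was run over the 6 untreated libraries. The script was tested on simulated data. Sites were 201 bp wide in 98.0% of cases. Sites and genes were joined through RefSeq coding genes of GRCm38.p6, and promoters of 17492 of 21900 coding genes were listed in the promoter table. The text names the 12 largest rises and falls among called genes with 3 or more sites and no overlap of the groups, up to 5 windows each way, the 8 largest rises and falls at gene ends, up to 4 called genes per list, and fixed loci. Names from outside this rule are marked as chosen after their values were seen, or serve as examples within a list. The members, the lists and the naming rule were chosen with earlier results of these data known. Alternatives were another pseudocount, other scalings, level filters, fewer libraries, a replicate block and other distances. Values of some genes of these lists and loci are not reported here.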

Additional observations from a re-analysis of the deposited data

How the results depend on the processing

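On the median scale 2209 of 2654 values of the named genes, sites and windows under other settings kept their side of the threshold; 420 kept direction and lost the call, 19 gained it, and 6 called values reversed. Among genes that were not called, 21 values of 8 genes changed sign, including Batf within 10 kb and Il17a without WT library 4. Those 6 were Cryaa (0.045), Tnfsf8 (-0.037), Gclc (-0.091), Xiap (-0.44) and Gm46963 (0.049) with sites within 10 kb, and Cs (-0.084) as a mean of log2 values; fewer sites enter within 10 kb, and the cause was otherwise not tested.

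Requiring a mean value of at least 50 left 2030 sites called higher (1961 on the deposited scale), with fewer sites tested. Sites called lower numbered 1161 with the 6 untreated libraries alone, 4545 in the ATAC1 libraries, 956 with cyclic loess and 931 to 3746 with 1 replicate left out. Genes called higher numbered 2367 in the ATAC1 libraries; genes called lower numbered 688 with total-signal scaling, 169 with the 6 libraries alone, 729 in the ATAC1 libraries, 601 as a mean of log2 values and 98 to 541 with 1 replicate left out. Windows called higher numbered 326 with median-of-ratios factors, 538 in the ATAC1 libraries and 87 to 424 with 1 replicate left out; windows called lower numbered 4, 44 and 1 to 30, with 130 under total-signal scaling and 10 in windows of 500 kb. The gene-end level ran from -0.20 to 0.079 with 1 replicate left out, turning sign without WT library 4. The causes of these differences were not tested.

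Libraries of the same number in the untreated groups had correlated deviations of r = 0.078 to 0.079 (2 pairs) and others -0.16 to 0.078, with a median of 0.0047. The 2 pairs had the highest values by a small margin. So few pairs cannot decide whether the numbers pair the libraries. With the replicate number as a block 3117 sites were called lower, and 285 windows were called higher and 7 lower. The test on recovered counts named among the alternatives was not run. WT library 4 is the only ATAC2 library of the untreated groups, so what goes with its prefix and its own deviation cannot be told apart. With 3 libraries a group, exact permutation tests cannot go below p = 0.1.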
